A study of Mus musculus with 6 samples.

Results

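The genes described here encode 10 proteins that neutrophils store in granules or keep in bulk in the cytosol: Mpo, Elane, Prtn3, Ctsg, Ngp, Ltf, Camp, Lcn2, S100a8 and S100a9. They were chosen as a named list, and each was read from the probe set linked to that gene alone. All 10 were measured, each by 1 probe set, out of 19938 genes on the arrays. The study followed mouse blood progenitors on their way to thymocytes on 6 Affymetrix arrays, with 2 arrays for each of 3 populations, and all cells came from bone marrow transduced with the fusion protein Nup98-HoxB4. HSC, labelled hematopoietic stem cells, were expanded in vitro with the cytokines IL6 and SCF. ProT, labelled committed T cells, had been grown with IL7 and DLL4, a ligand of Notch1. DP, double positive thymocytes, formed after such ProT cells were injected into Rag2-/- mice. Such hosts make no mature T or B cells of their own but keep their other blood lineages, and the labels give neither their age nor their number. The labels also do not say whether replicates came from separate cultures or animals, so each p-value rests on differences between these arrays that may be technical.

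Neutrophils fill their granules in the order in which they mature. Promyelocytes make the azurophil granule proteins, which include myeloperoxidase (Mpo) and the serine proteases neutrophil elastase (Elane), proteinase 3 (Prtn3) and cathepsin G (Ctsg). Myelocytes then make the specific granule proteins, among them lactoferrin (Ltf), the cathelicidin precursor Camp, its relative Ngp and the siderophore-binding lipocalin Lcn2. S100a8 and S100a9 pair to form calprotectin, a calcium- and zinc-binding complex of the cytosol of maturing and mature neutrophils that some monocytes also make. The transcription factors PU.1, C/EBPα, C/EBPε and MYB act on these genes in granulocyte precursors, and early T cell precursors switch the myeloid program off.

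Sequence before the start of all 8 azurophil and specific granule genes is shown so that the windows of these granule classes can be set side by side. Each line gives the 250 bases before the annotated start on the strand of the gene, from RefSeq on build GRCm38.p6, with matches to 4 short motifs in capitals on either strand: GAGGAAG for PU.1, TTNNGNAAT for C/EBP, TGTGGT for RUNX and AACNGNC for MYB. No match overlapped another in these windows.
Mpo (chr11:87793534-87793783, plus strand): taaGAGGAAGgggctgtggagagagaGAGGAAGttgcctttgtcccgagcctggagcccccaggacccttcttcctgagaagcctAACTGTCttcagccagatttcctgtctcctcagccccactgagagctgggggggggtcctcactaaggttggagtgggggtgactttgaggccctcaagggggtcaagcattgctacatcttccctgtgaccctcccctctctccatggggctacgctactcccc
Elane (chr10:79886062-79886311, plus strand): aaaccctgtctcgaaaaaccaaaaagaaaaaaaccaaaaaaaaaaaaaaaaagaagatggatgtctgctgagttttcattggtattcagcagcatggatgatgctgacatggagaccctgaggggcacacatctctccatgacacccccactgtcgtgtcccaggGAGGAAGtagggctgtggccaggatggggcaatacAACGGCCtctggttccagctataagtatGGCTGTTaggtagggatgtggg
Prtn3 (chr10:79879417-79879666, plus strand): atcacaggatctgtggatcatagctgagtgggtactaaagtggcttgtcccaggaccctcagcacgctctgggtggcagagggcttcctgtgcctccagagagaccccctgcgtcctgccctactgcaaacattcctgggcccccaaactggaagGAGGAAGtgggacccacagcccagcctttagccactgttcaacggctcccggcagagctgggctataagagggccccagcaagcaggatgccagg
Ctsg (chr14:56102575-56102824, minus strand): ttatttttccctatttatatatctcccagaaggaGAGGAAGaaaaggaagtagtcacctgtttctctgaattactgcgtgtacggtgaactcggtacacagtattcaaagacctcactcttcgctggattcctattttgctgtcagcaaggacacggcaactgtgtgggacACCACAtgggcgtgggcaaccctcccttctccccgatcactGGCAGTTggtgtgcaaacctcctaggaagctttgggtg
Ngp (chr9:110419558-110419807, plus strand): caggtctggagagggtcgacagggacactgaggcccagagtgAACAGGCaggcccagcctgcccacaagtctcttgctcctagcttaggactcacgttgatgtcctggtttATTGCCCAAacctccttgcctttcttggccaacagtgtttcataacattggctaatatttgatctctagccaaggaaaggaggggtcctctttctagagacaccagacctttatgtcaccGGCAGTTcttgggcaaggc
Ltf (chr9:111019042-111019291, plus strand): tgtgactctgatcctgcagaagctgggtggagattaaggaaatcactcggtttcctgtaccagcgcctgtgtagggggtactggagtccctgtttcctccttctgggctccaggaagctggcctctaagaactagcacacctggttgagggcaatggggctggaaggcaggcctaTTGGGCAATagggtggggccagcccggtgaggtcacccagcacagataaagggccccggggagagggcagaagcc
Camp (chr9:109849457-109849706, minus strand): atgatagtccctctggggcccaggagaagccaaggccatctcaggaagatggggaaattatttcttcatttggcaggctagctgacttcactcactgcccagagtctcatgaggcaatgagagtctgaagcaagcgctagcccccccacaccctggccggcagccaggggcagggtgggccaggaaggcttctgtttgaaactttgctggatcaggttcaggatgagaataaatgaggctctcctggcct
Lcn2 (chr2:32387740-32387989, minus strand): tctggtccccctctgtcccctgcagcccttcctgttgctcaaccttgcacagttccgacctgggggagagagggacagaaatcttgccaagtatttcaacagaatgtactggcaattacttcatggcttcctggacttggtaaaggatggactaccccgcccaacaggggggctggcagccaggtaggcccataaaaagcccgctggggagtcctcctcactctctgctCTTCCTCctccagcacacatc

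GAGGAAG was found before 4 of the 4 azurophil genes, with 2 copies before Mpo, before 1 of the 4 specific granule genes (Lcn2) and before 1 of the 2 calprotectin genes (S100a8), and in 10.6% of 32851 promoter windows of this length. The C/EBP letters were found before 0 of the 4 azurophil genes, 2 of the 4 specific granule genes (Ngp and Ltf) and 1 of the 2 calprotectin genes (S100a9), against 10.2% of all windows. The MYB letters occurred before 3 azurophil genes, 1 specific granule gene and 0 calprotectin genes (27.7% of all windows), and the RUNX letters before Ctsg and S100a9 (4614 of the 32851 windows). The windows of 10 genes are too few for more than this description. A match is not evidence of binding, and a missing match to these fixed letters is not evidence that a site is absent. Prtn3 and Elane are neighbours on chromosome 10 and S100a8 and S100a9 on chromosome 3, while Ctsg lies on chromosome 14 between Mcpt8 and Gzme.

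Values below are log2 signals, in which a difference of 1 is a 2-fold change, and means carry their SD over 2 arrays. A gene was called changed where limma gave an adjusted p below 0.05 (Benjamini-Hochberg, 19938 genes). A fold is written as a minimum where the lower of its means was under 7.17, the median of all gene values, because no file shows that signals so dim exceed background. Marker lists were set beside the labels. Of 8 progenitor markers 8 averaged at or above that median in HSC, 7 in ProT and 6 in DP, so this count differed little. Their list means were 10.27 to 10.78 in HSC, 9.99 to 10.04 in ProT and 8.01 to 8.03 in DP. Myeloid lists were high in HSC too. Of 12 measured neutrophil surface receptors 10 averaged at or above that median in HSC, 5 in ProT and 3 in DP. Of 12 measured monocyte and macrophage markers 9 did so in HSC, 4 in ProT and 7 in DP. Of 9 measured early T cell markers 1 did so in HSC, 9 in ProT and 9 in DP, and of 8 measured double positive markers 1 in HSC, 2 in ProT and 8 in DP. Medians of the single arrays over all probe sets ran from 6.73 to 6.91, with DP highest. Over the genes used here they were 7.11 and 7.13 in DP, 7.18 and 7.14 in HSC, and 7.24 on both ProT arrays.

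**Figure D1:**
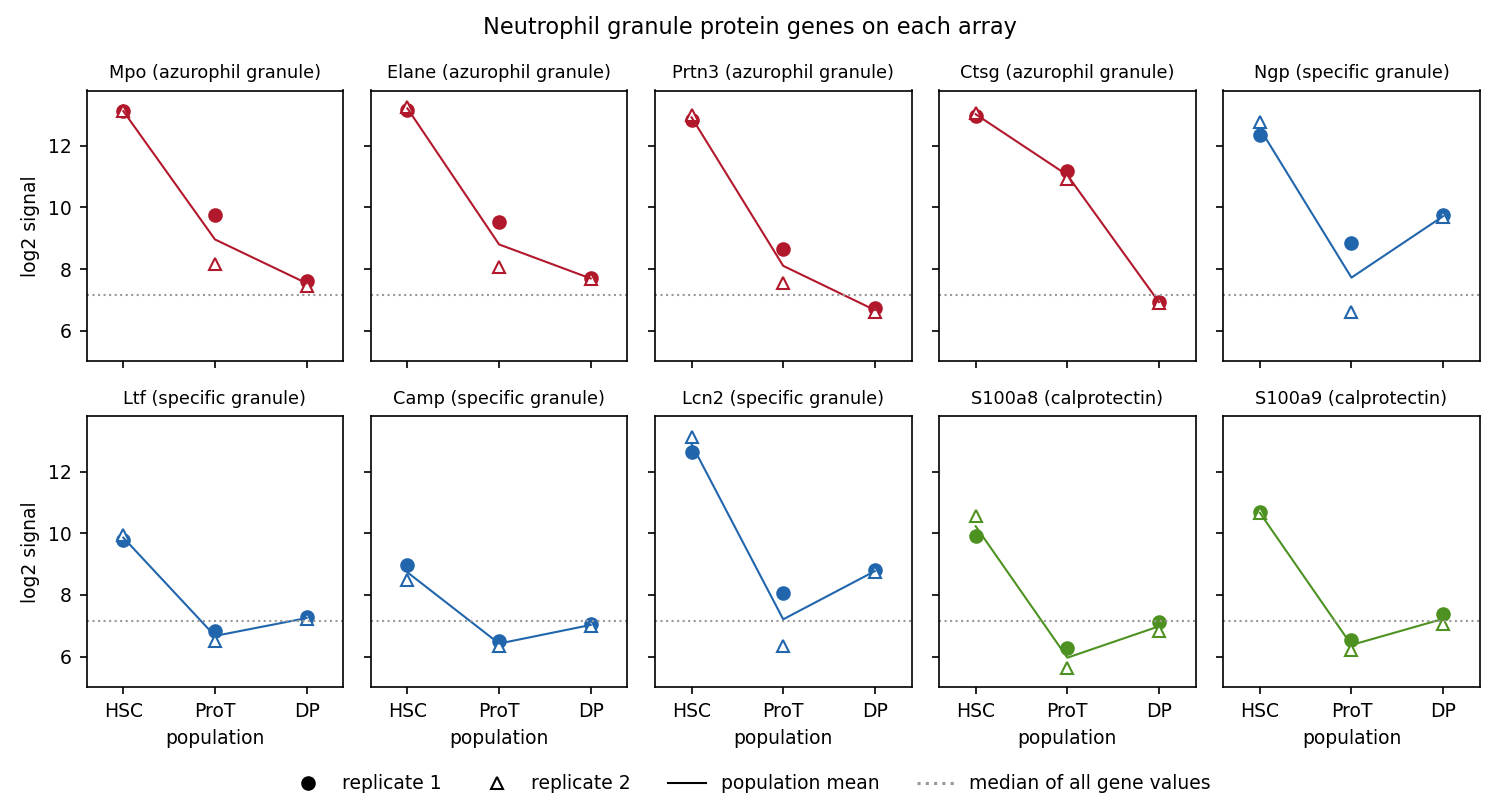
Log2 signal (vertical axis) of the 10 granule protein genes on every array, by population (horizontal axis), with a filled circle for replicate 1, an open triangle for replicate 2 and a line through the population means; the dotted line is the median of all gene values, 7.17. All genes are highest in HSC, the azurophil genes are lowest in DP, and the specific granule and calprotectin genes are lowest in ProT.

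The comparison of ProT with HSC asked how myeloid genes differ between the expanded progenitors and cells grown with DLL4 and IL7. The HSC were grown with IL6 and SCF, so the change of cytokines, DLL4 and the cell type cannot be told apart. All 10 granule genes fell, with a median log2 change of -4.28, against a median of -0.01 for all genes; 6.90% of all genes were called lower in ProT than in HSC and 7.85% higher. The falls ranged from -1.98 for Ctsg to -5.69 for Lcn2. Each array measured RNA pooled over many cells, so fewer granule-bearing cells and less transcript per cell cannot be told apart. Monocyte and macrophage markers moved as well: of 12 measured, 5 fell and 1 rose, with list means of 7.36 to 7.50 on ProT arrays and 8.88 to 9.31 on HSC arrays, and their part in the result was not tested.

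Among the azurophil genes, Mpo, whose enzyme makes hypochlorous acid, had 9.76 and 8.16 in ProT, against 13.13 and 13.13 in HSC. Elane had 9.54 and 8.06 in ProT, against 13.16 and 13.27 in HSC. Prtn3, the gene beside Elane, had 8.66 and 7.55 in ProT, against 12.84 and 13.01 in HSC. The ProT arrays lay far below the HSC arrays for all 3, and replicate 1 of ProT was the higher of its pair each time. The falls were 18.0-fold for Mpo (log2 change -4.17 ± 0.48, SE), 21.4-fold for Elane (-4.42 ± 0.44) and 28.4-fold for Prtn3 (-4.83 ± 0.34), with adjusted p of 0.00309, 0.00185 and 0.000475 from limma. Ctsg fell least of the 10 genes. It had 11.17 and 10.93 in ProT, against 12.98 and 13.08 in HSC, a 3.94-fold fall (-1.98 ± 0.10, adjusted p = 0.000131). Its 95% confidence interval, from -2.23 to -1.73, did not reach those of the other azurophil genes, of which the nearest was that of Mpo, from -5.34 to -2.99.

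Among the specific granule genes, Lcn2, whose protein withholds iron from bacteria, had 8.07 and 6.35 in ProT, against 12.66 and 13.14 in HSC. It fell 51.6-fold (-5.69 ± 0.53, adjusted p = 0.00144). Ngp had 8.86 and 6.59 in ProT, against 12.34 and 12.78 in HSC, a 28.6-fold fall (-4.84 ± 0.68, adjusted p = 0.0067). The ProT arrays of these genes were far apart, yet neither reached the HSC level. Ltf, the iron-binding lactoferrin, had 6.82 and 6.52 in ProT, against 9.78 and 9.94 in HSC, and fell at least 9.14-fold (-3.19 ± 0.12, adjusted p = 4.6e-05). Camp had 6.50 and 6.35 in ProT, against 8.98 and 8.49 in HSC, and fell at least 4.97-fold (-2.31 ± 0.16, adjusted p = 0.000498). The ProT means of Ltf and Camp were under that median, so the true falls may be larger.

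The calprotectin genes both fell. S100a8 had 6.29 and 5.64 in ProT, against 9.92 and 10.55 in HSC, a fall of at least 19.3-fold (-4.27 ± 0.29, adjusted p = 0.000405). S100a9 had 6.55 and 6.20 in ProT, against 10.68 and 10.66 in HSC, a fall of at least 19.6-fold (-4.29 ± 0.15, adjusted p = 3.47e-05). In ProT these genes were under that median on each array, and in HSC above it. Of 13 other S100 genes that were measured, 4 rose and 1 fell in ProT (S100a1, -0.72 ± 0.13, named after its value was seen). S100a6 rose by 3.38 ± 0.39, S100a4 by 2.06 ± 0.11, S100a10 by 0.86 ± 0.16 and S100a5 by 0.85 ± 0.08 on the log2 scale, while S100a13 (0.39 ± 0.11) and S100a3 (0.27 ± 0.09) did not pass.

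The replicate arrays of ProT differed in these genes more than in most. All 10 were higher on replicate 1, as were 58.4% of all genes, and 5 of the 10 (Ngp, Lcn2, Mpo, Elane and Prtn3) were over 2-fold higher, as were 0.115% of all genes. Those 5 are among only 23 genes on the array with such a difference, of which 13 were called lower in ProT than in HSC. The 23 also include Ms4a3, Cybb, Chil1, Wfdc17, Ccl9 and Thbs1, highest in HSC, and Heyl, Jchain and Ccl22, higher in ProT than in HSC (all chosen after their values were seen). Leaving out replicate 1 of ProT changed the log2 falls to -4.97 for Mpo, -5.16 for Elane, -5.97 for Ngp and -6.55 for Lcn2, and leaving out replicate 2 to -3.37, -3.68, -3.71 and -4.83. Prtn3 gave -5.38 without replicate 1 and -4.27 without replicate 2. All 10 genes stayed lower in ProT in either case. Such fits hold no spread between ProT arrays, so their calls rest on the spread of the other arrays. In HSC 2 of the 10 were higher on replicate 1 (49.6% of all genes), and in DP all 10 were (54.8%), with none over 2-fold apart in that direction in either population.

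**Figure D2:**
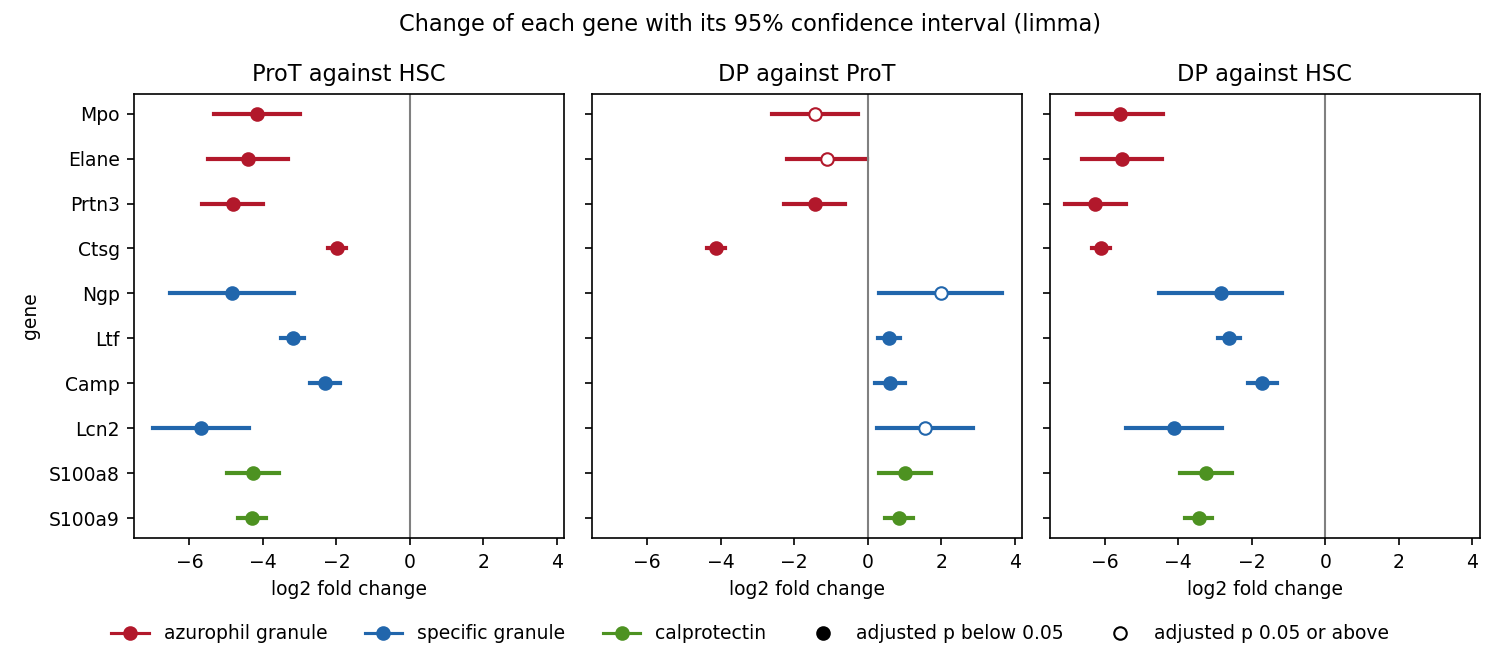
Log2 fold change (horizontal axis) of each granule gene (vertical axis) in the 3 comparisons, with the limma 95% confidence interval as a line; filled points have an adjusted p below 0.05. All 10 genes lie left of 0 for ProT against HSC and for DP against HSC, while for DP against ProT the 4 azurophil genes lie left of 0 and the other 6 right of it.

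DP thymocytes were compared with ProT to ask how the genes changed when the cells matured in a host. Of the 10 genes 2 fell (Ctsg and Prtn3), 4 rose (S100a9, S100a8, Ltf and Camp) and 4 did not pass, where 18.1% of all genes were called lower and 14.5% higher in DP. The share called lower is near that of all genes, and no test of a difference between the classes was made. In DP, the 4 azurophil genes lay below both ProT arrays, as did 32.9% of all genes, and the 6 others lay above both, as did 36.1%. Arrays that do not overlap were thus common across all genes in this comparison.

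Ctsg had 6.94 and 6.91 in DP, against 11.17 and 10.93 in ProT. This was a fall of at least 17.5-fold (-4.13 ± 0.10, adjusted p = 9.83e-06). Prtn3 had 6.73 and 6.61 in DP, against 8.66 and 7.55 in ProT, a fall of at least 2.71-fold (-1.44 ± 0.34, adjusted p = 0.0222). Mpo had 7.62 and 7.45 in DP, against 9.76 and 8.16 in ProT, and did not pass (-1.42 ± 0.48, adjusted p = 0.0705). Elane had 7.70 and 7.69 in DP, against 9.54 and 8.06 in ProT, and did not pass either (-1.11 ± 0.44, adjusted p = 0.116). For Mpo and Elane the spread lay in ProT, where the replicates differed by 1.60 and 1.49, while the DP arrays differed by 0.17 and 0.01.

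Ngp had 9.75 and 9.68 in DP, against 8.86 and 6.59 in ProT (1.99 ± 0.68, adjusted p = 0.0747). Lcn2 had 8.80 and 8.75 in DP, against 8.07 and 6.35 in ProT (1.57 ± 0.53, adjusted p = 0.0726). These were the largest differences among the 6 genes that lay higher in DP. Neither passed the test in the main fit, though both did under some other processing settings given at the end. The DP arrays were nearly equal and the ProT arrays were not. Ltf had 7.29 and 7.21 in DP, against 6.82 and 6.52 in ProT, and rose by 0.58 ± 0.12 (adjusted p = 0.0159). Camp had 7.06 and 6.99 in DP, against 6.50 and 6.35 in ProT, and rose by 0.61 ± 0.16 (adjusted p = 0.0361). The DP arrays of both genes lay above the ProT arrays, by less than 1 log2 unit on average. S100a8 had 7.13 and 6.83 in DP, against 6.29 and 5.64 in ProT, and rose by 1.02 ± 0.29 (adjusted p = 0.0414). S100a9 had 7.38 and 7.07 in DP, against 6.55 and 6.20 in ProT, and rose by 0.85 ± 0.15 (adjusted p = 0.00819). The DP levels of Ltf, Camp, S100a8 and S100a9 were close to the median of all gene values, and of these 6 genes only Ngp and Lcn2 reached signals clearly above it in DP.

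These calls rested on few arrays. Without replicate 1 of DP, 0 genes were called higher by limma (2 had an unadjusted p below 0.05) and 1 lower, and without replicate 2 of DP 1 was called higher and 1 lower. Calls over all genes dropped too, to 1467 higher and 2280 lower without replicate 1 of DP and to 1484 and 2047 without replicate 2, against 2899 and 3607 with all arrays. Without replicate 1 of ProT, the log2 changes were 3.13 for Ngp, 2.43 for Lcn2, -0.62 for Mpo and -0.36 for Elane. Without replicate 2 of ProT they were 0.86 for Ngp, 0.70 for Lcn2, -2.22 for Mpo and -1.85 for Elane. Fits without a ProT array hold no spread between ProT arrays, so their calls rest on the spread of the other arrays. No log2 change of the 10 genes turned its direction when any 1 array was left out, which was fixed in advance because the arrays did not overlap.

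Markers of other cells moved in the same comparison. Of 12 measured monocyte and macrophage markers, 4 rose in DP, among them the complement gene C1qb (3.13 ± 0.21) and the coagulation factor gene F13a1 (5.55 ± 0.13), and 3 fell, among them Adgre1 (-3.98 ± 0.31), all named after their values were seen. The mean log2 signal of that list was 7.52 to 7.53 on DP arrays and 7.36 to 7.50 on ProT arrays. Of 6 measured B cell markers 5 rose, with list means of 7.02 to 7.06 in DP and 6.17 to 6.20 in ProT, and of 5 measured erythroid markers 1 rose (Alas2, 2.69 ± 0.09) and 1 fell, with list means of 7.28 to 7.42 in DP and 7.06 to 7.17 in ProT. Of 12 measured neutrophil surface receptors 2 rose and 5 fell, with list means of 6.66 to 6.69 in DP and 7.35 to 7.48 in ProT. The largest falls among them were Il1r2 (-3.27 ± 0.20), Fcgr3 (-2.72 ± 0.22), Itgam (-2.51 ± 0.14) and Clec4d (-1.12 ± 0.12). Itgb2, named after its value was seen, stood at 11.88 in DP and 11.04 in ProT. Ly6g (0.47 ± 0.41) and Cxcr2 (-0.27 ± 0.16) did not pass, at 5.32 and 5.07 in DP, below the median of all gene values. Log2 array signals have no 0, and 1 of the monocyte and macrophage markers, 5 of the B cell markers, 3 of the erythroid markers and 1 of the neutrophil receptors lay below that median on every array. The part of these cells in the granule gene values was not tested.

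Over the whole path, DP against HSC, all 10 genes fell, where 18.8% of all genes were called lower. Prtn3 (-6.26 ± 0.34) fell at least 76.7-fold and Ctsg (-6.10 ± 0.10) at least 68.8-fold, and Mpo (-5.59 ± 0.48) and Elane (-5.52 ± 0.44) fell 48.2-fold and 46.0-fold. The measured log2 changes of the other 6 genes were -4.12 ± 0.53 for Lcn2, -3.45 ± 0.15 for S100a9, -3.25 ± 0.29 for S100a8, -2.85 ± 0.68 for Ngp, -2.61 ± 0.12 for Ltf and -1.71 ± 0.16 for Camp. The DP means of Prtn3, Ctsg, Camp and S100a8 were under the median of all gene values, so their changes are minimums and the sizes are not ranked between classes. This comparison shares its arrays with the preceding ones. Without replicate 2 of HSC, or without either DP array, Ngp was no longer called (adjusted p between 0.0768 and 0.13).

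Whether the change came before or after the ProT stage was tested by setting the ProT mean against the average of the HSC and DP means, called the midpoint here. ProT was called below the midpoint for 8 of the 10 genes and above it for 1, where 9.17% of all genes were called below and 11.8% above. Ctsg was the gene above it (1.08 ± 0.09, adjusted p = 0.000759), with 32.4% of its log2 change between HSC and DP reached in ProT, which is an upper limit because its DP signal was dim. Prtn3 (-1.69 ± 0.29) and Elane (-1.66 ± 0.38) lay below, with 77.1% and 80.0% of their log2 changes reached. The value for Prtn3 is an upper limit too, because its DP signal was dim. Mpo, at 74.5%, did not pass (-1.37 ± 0.41, adjusted p = 0.0693). Mpo moved to -2.17 without replicate 1 of ProT and to -0.57 without replicate 2. Such fits hold no spread between ProT arrays, so whether Mpo passed in them says little. Lcn2 (-3.63 ± 0.46), Ngp (-3.42 ± 0.59), S100a8 (-2.64 ± 0.25), S100a9 (-2.57 ± 0.13), Ltf (-1.89 ± 0.11) and Camp (-1.46 ± 0.14) also lay below it. For these genes ProT lay below both HSC and DP on every array, which by itself places ProT below the midpoint. Their contrast therefore does not date the change. In ProT they had reached from 122% (Ltf) to 170% (Ngp) of the log2 change between HSC and DP. Without either DP array, 5 genes were called below the midpoint, Elane, Prtn3 and Ngp no longer among them, and without replicate 2 of HSC Elane was not called.

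The level of each gene over the populations can be ordered from these values. Prtn3 and Ctsg were highest in HSC, lower in ProT and lowest in DP, with each step called. Mpo and Elane had the same order on every array, but the step between DP and ProT missed the adjusted threshold, with 95% intervals of -2.60 to -0.25 for Mpo and -2.19 to -0.02 for Elane. Ltf, Camp, S100a8 and S100a9 were highest in HSC, lower in DP and lowest in ProT, with each step called on all 6 arrays. Without either DP array the step between DP and ProT was no longer called for Ltf, Camp and S100a8, nor was it for Camp without either ProT array, for S100a8 without replicate 2 of ProT or for S100a9 without replicate 1 of DP. Ngp and Lcn2 had that order on every array as well, and the step between DP and ProT again missed the adjusted threshold, with 95% intervals of 0.32 to 3.67 for Ngp and 0.26 to 2.87 for Lcn2.

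Other genes for granule contents moved in both directions. Of 10 further azurophil granule or precursor genes that were measured, 5 fell and 1 rose in ProT against HSC. Ms4a3, a marker of granulocyte-monocyte precursors, fell by 6.12 on the log2 scale, Lyz2, lysozyme, fell by 3.95, Gusb, a lysosomal enzyme, fell by 0.64, and Bpi rose by 0.56 ± 0.08 at signals under the median. Cd63, a granule membrane protein, did not pass (1.83 ± 0.47, adjusted p = 0.0542), nor did Serpinb1a, an inhibitor of elastase and cathepsin G (-0.09 ± 0.15). In DP against ProT 8 of these 10 fell, led by Serpinb1a (-3.81 ± 0.15) and Cd63 (-3.77 ± 0.47), while Lyz2 rose by 1.75 ± 0.33. Ms4a3 did not pass in that comparison (-0.84 ± 0.42).

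Of 20 further specific and gelatinase granule genes, 15 fell and 1 rose (Adam8, 1.99 ± 0.26, named after its value was seen) in ProT against HSC, with a median log2 change of -1.09. Chil1 (-6.06 ± 0.35), the haptoglobin gene Hp (-5.78 ± 0.24), the protease inhibitor Slpi (-4.11 ± 0.14) and Lrg1 (-3.54 ± 0.45) fell most, and Orm1 (-0.27 ± 0.13) and Mmp25 (0.18 ± 0.10) did not pass. In DP against ProT 5 of the 20 fell, with Adam8 (-3.98 ± 0.26), Anxa1 (-3.40 ± 0.10) and the collagenase gene Mmp8 (-3.27 ± 0.30) in front, and 2 rose, Lyz1 (1.14 ± 0.26) and Chil3 (0.45 ± 0.09, named after its value was seen). The gelatinase gene Mmp9 (-0.57 ± 0.38) and Retnlg (0.44 ± 0.16) did not pass. Of 7 measured eosinophil granule genes, 3 fell in ProT against HSC (Prg2, -1.87 ± 0.38, Prg3, -0.94 ± 0.13, and Epx, -0.89 ± 0.21) and the others did not pass, and in DP against ProT Siglecf fell (-2.43 ± 0.08) and Il5ra (0.72 ± 0.10) and Ear6 (0.53 ± 0.13) rose.

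The phagocyte NADPH oxidase makes the superoxide from which the hydrogen peroxide used by myeloperoxidase forms. Cybb, the catalytic subunit, fell by 5.57 in ProT against HSC and rose by 1.50 ± 0.40 in DP against ProT. Ncf1, a cytosolic subunit, did not pass in ProT against HSC (-0.28 ± 0.09) and changed by -3.49 ± 0.09 in DP against ProT, and Ncf4 changed by -0.55 ± 0.11 and -2.50 ± 0.11. Of the 5 subunits measured, 2 fell and the others did not pass at the ProT step, and 2 fell and 1 rose at the DP step.

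Among 12 regulators of granulocytes, 8 fell and 1 rose (Klf4, 0.53 ± 0.08, named after its value was seen) in ProT against HSC. Cebpa, which starts granulocyte differentiation, changed by -3.06 ± 0.14, Cebpe, which the specific granules depend on, by -2.41 ± 0.15, Zeb2 by -2.35 ± 0.22 and Cebpd by -1.94 ± 0.09, whereas Gfi1 (-0.57 ± 0.14, adjusted p = 0.0504) and Myb (-0.28 ± 0.08) did not pass. In DP against ProT, 4 fell and 2 rose. Spi1, which encodes PU.1, fell by 3.42, with 7.88 ± 0.0016 in DP and 11.30 ± 0.34 in ProT (SD, n = 2 each), and Gfi1 rose by 0.74 ± 0.14. Cebpa (0.02 ± 0.14) and Cebpe (-0.12 ± 0.15) did not pass between DP and ProT. The Cebpa means, 6.65 in DP and 6.63 in ProT, were under the median of all gene values. Those of Cebpe, 7.19 and 7.31, were close to it, so little change could be seen. The part of these regulators in the granule gene values was not tested. Of the surface receptors of neutrophils, 9 of 12 fell and 1 rose (Il1r2, 1.52 ± 0.20, named after its value was seen) in ProT against HSC, with the G-CSF receptor gene Csf3r at -4.98 ± 0.12 and the chemokine receptor gene Cxcr2 at -4.65 ± 0.16.

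**Figure D3:**
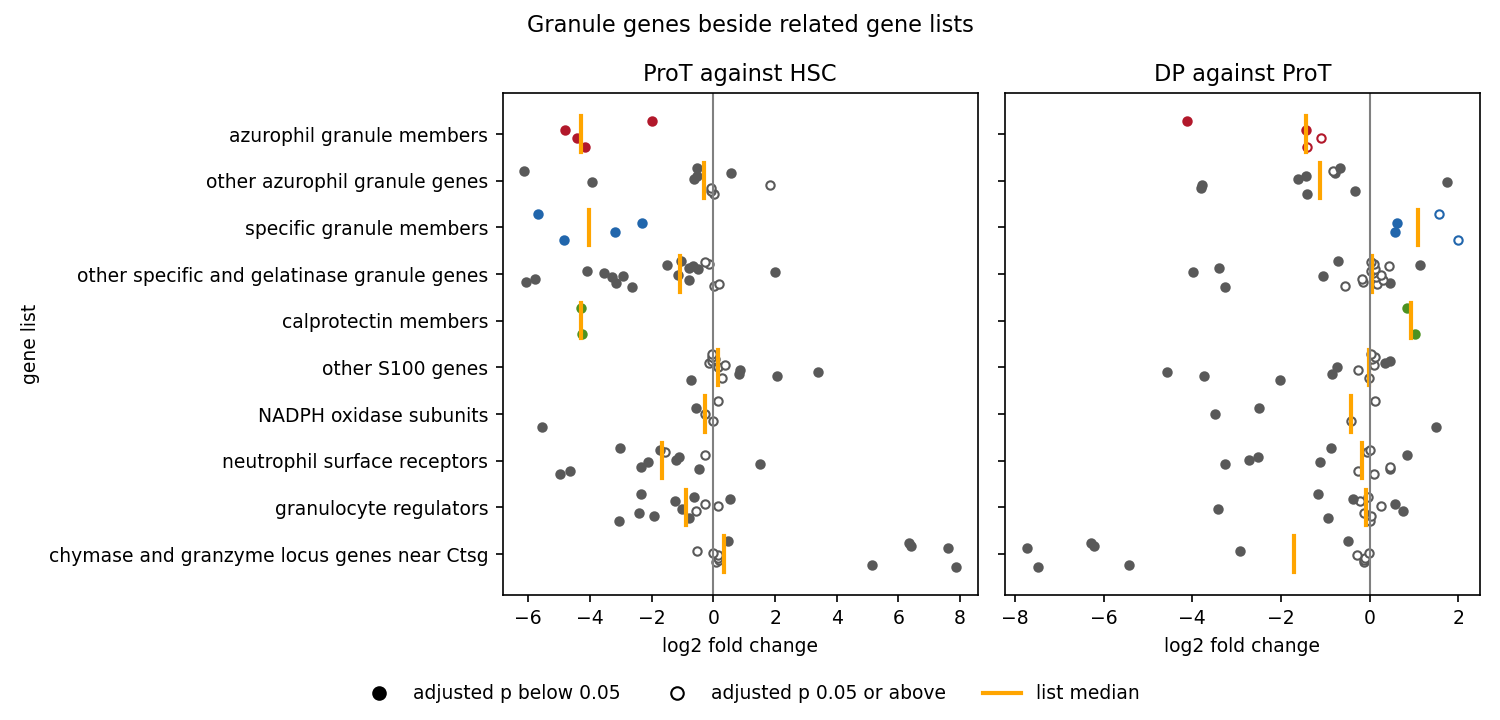
Log2 fold change (horizontal axis) of each gene of the granule lists and related lists (vertical axis) in ProT against HSC and in DP against ProT; filled points have an adjusted p below 0.05 and the orange bars are list medians. The azurophil, specific granule and calprotectin genes lie at medians of -4.29, -4.02 and -4.28 in ProT against HSC, and at -1.43, 1.09 and 0.93 in DP against ProT.

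Ctsg sits in a cluster of protease genes that mast cells, cytotoxic lymphocytes and neutrophils use. Of 12 other genes of the cluster that were measured, 6 rose in ProT against HSC and 7 fell in DP against ProT, and the others did not pass. Gzmb, the granzyme of cytotoxic cells, had 13.54 ± 0.02 in ProT and 5.67 ± 0.03 in HSC, and the mast cell protease gene Mcpt1 had 12.52 ± 0.05 in ProT and 4.92 ± 0.05 in HSC. Mcpt2 rose by 6.40 ± 0.09 and Mcpt4 by 6.33 ± 0.10. Mcpt8, the gene next to Ctsg and known from basophils, had 8.49 ± 0.37 in ProT and 9.03 ± 0.09 in HSC (-0.54 ± 0.18, adjusted p = 0.11), and fell by 2.91 in DP against ProT. Gzme, the neighbour on the other side, lay between 5.01 and 5.32 on every array and did not pass in either step (0.18 ± 0.10 and -0.14 ± 0.10). Of 8 measured mast cell and basophil markers, 4 rose and 1 fell in ProT against HSC and 6 fell in DP against ProT, with list means of 7.30 to 7.66 in HSC, 8.09 to 8.11 in ProT and 5.97 to 6.04 in DP, and their part in the Ctsg values was not tested.

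**Figure D4:**
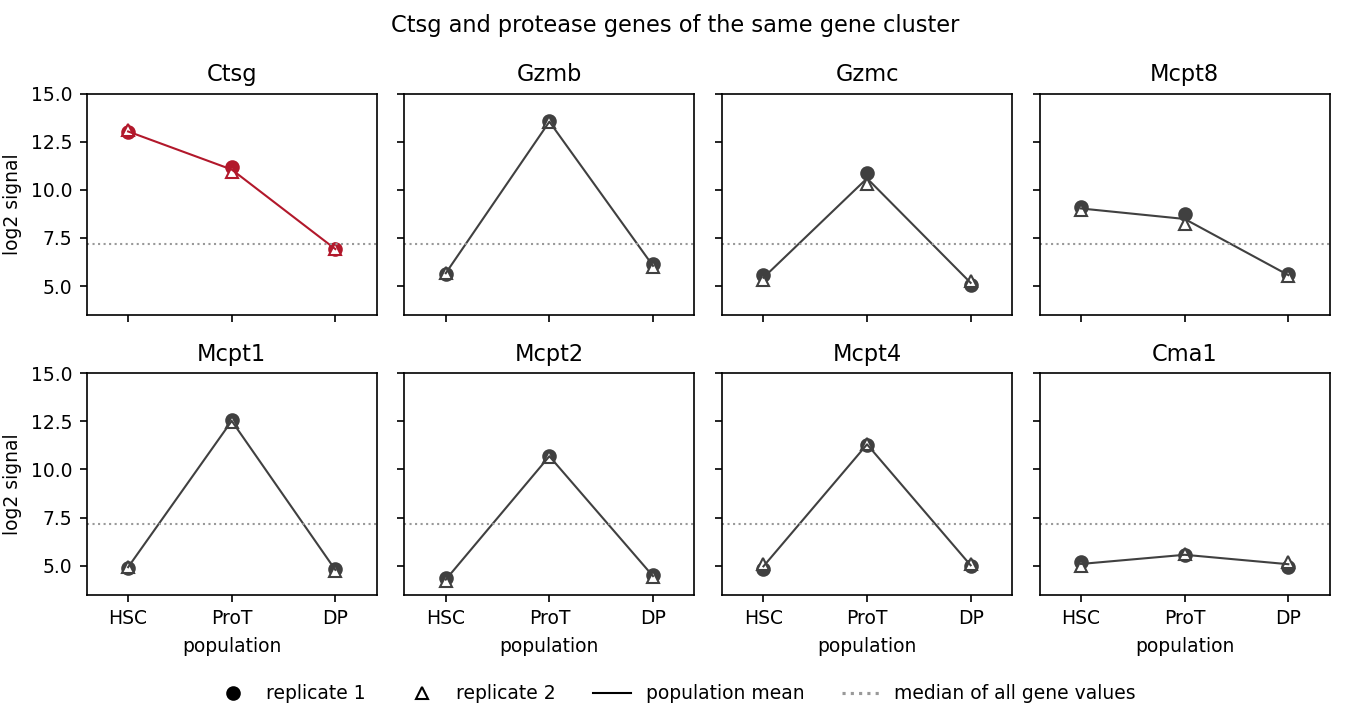
Log2 signal (vertical axis) of Ctsg and 7 other protease genes of its cluster on every array, by population (horizontal axis), with a filled circle for replicate 1, an open triangle for replicate 2, a line through the means and a dotted line at 7.17, the median of all gene values. Gzmb, Gzmc, Mcpt1, Mcpt2 and Mcpt4 peak in ProT, while Ctsg and Mcpt8 are highest in HSC and lowest in DP.

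The genes most like each class were found by the distance between centred log2 values over the 6 arrays, leaving out the 10 genes themselves. Nearest to the azurophil mean profile were Thbs1 (distance 0.46), the chemokine gene Ccl9 (0.865), Lbp, Mc5r and F630028O10Rik. That profile averages Ctsg, which stayed higher in ProT, with Mpo, Elane and Prtn3, so it need not match any single gene. Thbs1, the matrix protein thrombospondin 1, had 12.18 and 12.51 in HSC, 9.37 and 8.35 in ProT, and 6.47 and 6.47 in DP. Nearest to the specific granule profile were Wfdc17 (0.572), Lyz2 (0.723), Rab7b, Cpq and Csf1r, and nearest to calprotectin Csf1r (0.357), Tgfbi (0.496), Cyp39a1, Wfdc17 and Rab7b. Csf1r, the receptor for the macrophage growth factor M-CSF, changed by -4.28 ± 0.20 in ProT against HSC and did not pass in DP against ProT (0.65 ± 0.20, adjusted p = 0.0575). These distances describe 6 arrays in 3 groups and carry no test.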

How the data were processed

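Total RNA of 6 samples was measured on Affymetrix arrays. The deposited table holds log2 values for 35556 probe sets, made by the authors with RMA in Partek, per the submitters' processing notes; the sources used here give no versions and no detection calls, so dim signals carry no detection limit. RMA compresses changes of dim probe sets. Probe sets linked to 1 gene in the platform annotation (21789) were kept, those with several genes (1621) or none (12146) were left out, and where a gene had several (999 genes) the probe set of highest mean was used, which gave 19938 genes.

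A linear model over all 6 arrays with 1 mean for each population was fitted with limma 3.58.1 in R 4.3.3 (lmFit and eBayes, 3 residual degrees of freedom), and p-values were adjusted by Benjamini-Hochberg over all genes. The number of arrays limits the precision. The fit was tested on simulated data. The midpoint contrast was ProT minus the mean of HSC and DP. Alternatives were other scalings, a filter on dim genes, other choices of probe set, other priors, stricter thresholds, a replicate block and leaving out each array. All 10 genes were named, as were the 5 genes nearest to each class. Of each other list, up to 4 called and 2 uncalled genes with the largest changes were chosen for naming, and not all of these are given. Some genes named in 1 comparison, such as Cebpa and Cebpe, were followed into the other outside that rule. The genes and lists were chosen with earlier results of these data known. Promoter windows and neighbouring genes came from RefSeq tables.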

Additional observations from a re-analysis of the deposited data

How the results depend on the processing

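In ProT against HSC all 10 genes were called lower under every alternative run. No log2 change of a granule gene reversed under any alternative, but many alternatives could not reverse it. Each gene had 1 probe set, and the priors, the block and the thresholds leave log2 changes as they are. Leaving out 1 array could not reverse a change between populations either, because their arrays did not overlap for these genes. Of the alternative values, 584 kept their side of the threshold, 15 gained a call and 31 lost one. The 584 include repeats of the same log2 change. In DP against ProT, the count of genes called lower was 2, with 1 to 4 when 1 array was left out and 1 at an adjusted p below 0.01. The count called higher was 4, with 0 to 5 when 1 array was left out and 1 both at an adjusted p below 0.01 and at a change of at least 2-fold. The count below the midpoint was 8, with 5 to 9 when 1 array was left out and 5 at an adjusted p below 0.01. Leaving out an array leaves a population with 1 array, assumed to vary like the others, and the cause of these moves was not tested. Over all genes, deviations of same-numbered replicates had small correlations (0.0584 for ProT and HSC, -0.0428 for DP and ProT, -0.0222 for DP and HSC). With 2 arrays for each population these values cannot show whether the samples were paired, and the labels do not say. With a replicate block, limma called 3 genes higher and 2 lower in DP against ProT, and S100a8 was no longer called (adjusted p = 0.0609). With the filter on dim genes, limma also called Ngp and Lcn2 higher (adjusted p = 0.0378 and 0.0371) and Mpo lower (0.0362) in DP against ProT. In that comparison limma also called Lcn2 higher under quantile normalization (0.0465) and median centring (0.0494). Mpo was called below the midpoint by limma under that filter (0.0363) and under median centring (0.0491). Under median centring, all genes had a median of 0.14 in DP against ProT and 61.2% of calls were higher, against 0.02 and 44.6% without it; for ProT against the midpoint these were -0.11 and 38.7%, against -0.02 and 56.3%. Signals near the median of all gene values limit what the changes of Ltf, Camp, S100a8 and S100a9 between DP and ProT can show.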
